A study of Homo sapiens with 10 samples.

Results

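The NFKB1 sites described here are the ChIP-seq peaks of NFKB1 in ER-Src cells before and after transformation, 13252 peaks in non-transformed and 73822 in transformed cells, 87074 of the 879550 peaks that the series lists on chromosomes 1 to 22 and X. ER-Src cells are MCF-10A, a non-tumorigenic human mammary epithelial line, with the v-Src oncoprotein joined to the part of the estrogen receptor that binds its ligand, which makes the kinase inducible by tamoxifen. Ethanol-grown cells are the non-transformed state, and cells given 1 µM 4-hydroxy-tamoxifen for 12 h are the transformed state. Both states carry the ER-Src fusion. The names written inside the NFKB1 lists give 36 h for the ethanol culture and 12 h for the tamoxifen culture, so time in culture may differ between the states as well. FOS, JUN, JUNB, and STAT3 were mapped in the same way, with 1 library per protein and state and 10 libraries in all. The library names end in repA for both NFKB1 states, but differ between the states for JUNB (repC and repA) and STAT3 (repB1 and repA), so the replicate series and the state cannot be told apart for these proteins.

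NFKB1 is a subunit of NF-κB, the family of dimeric factors that inhibitory IκB proteins hold in the cytoplasm until an inflammatory or stress signal releases them. The gene encodes a precursor that is processed to a DNA-binding subunit without a transcription activation domain of its own, which acts in dimers with other family members such as RELA. FOS, JUN, and JUNB are members of AP-1, whose dimers bind enhancers in many epithelial cells and respond to growth factor and stress signals. STAT3 is activated by phosphorylation on tyrosine, by Janus kinases below cytokine receptors and also by Src.

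A site was called kept when the other NFKB1 list had a summit, the highest point of a peak, within 300 bp of its own. Non-transformed sites without such a summit were called lost, and transformed sites without one were called gained. The level of a site is its pileup, the count of fragment-length-extended reads at the summit, scaled to 1000000 of the tags that the peak caller kept, and is given as reads per 1000000 (RPM). The non-transformed NFKB1 library held 4837474 such tags and the transformed library 9674390, 2.0 times as many, so that 1 read is worth 0.207 RPM in the first and 0.103 RPM in the second. With 1 library per state no difference between states has a replicate check or a test, and the intervals given are Wilson 95% intervals that cover the sampling of sites only. Positions are as deposited and refer to the hg19 build named in the submitters' processing notes.

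Nearly 9 in 10 non-transformed NFKB1 sites were still listed after transformation, and the sites absent from the transformed list were weak. Of the 13252 non-transformed sites, 11829 were kept (89.3%, 88.7 to 89.8%) and 1423 were lost (10.7%). Of the 73822 transformed sites, 11953 were kept and 61869 were gained (83.8%, 83.5 to 84.1%). The gained sites were weak as well. Kept sites had a median level of 1.65 RPM in non-transformed cells (quartiles 1.45 and 2.69) and 2.07 in transformed cells (quartiles 1.24 and 3.31). Lost sites had a median of 1.24 RPM, which is 6 reads, and gained sites a median of 0.827, which is 8 reads. Kept sites reached 127 reads (26.3 RPM) in non-transformed and 144 reads (14.9 RPM) in transformed cells, against at most 54 reads at a lost site and 82 reads at a gained site. Peaks at kept sites were also longer, with median lengths of 188 bp in the non-transformed and 303 bp in the transformed list, compared with 135 bp for lost and 169 bp for gained sites.

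**Figure D1:**
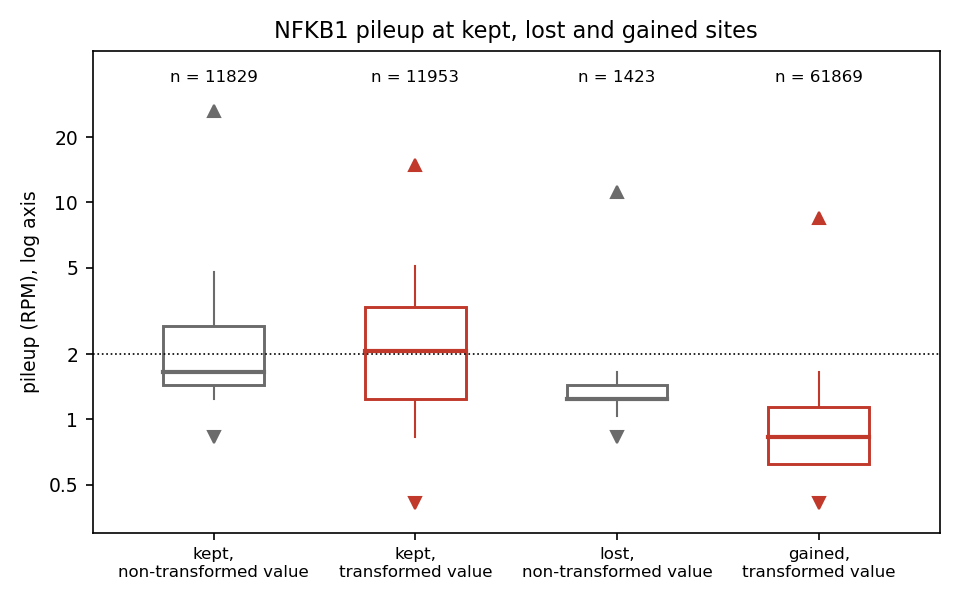
NFKB1 pileup in RPM (log axis) at kept sites in each state, at lost sites, and at gained sites. Boxes span the quartiles with the median as a thick line, whiskers the 10th to 90th percentile, triangles the lowest and highest site, and the dotted line marks 2 RPM. Gained sites have the lowest median, 0.827, and kept sites in transformed cells the highest, 2.07.

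Many gained sites lay at or below the weakest levels of the shallower list. The lowest pileup listed in non-transformed cells was 4 reads, and 36195 of the 61869 gained sites (58.5%) had a level that would give at least that many reads in the non-transformed library. The weakest decile of that list had a median pileup of 5 reads, and 23087 gained sites (37.3%) would reach it. Among sites of at least 2 RPM in their own list, which is 9.67 reads in the non-transformed and 19.3 reads in the transformed library, 77 of 5005 non-transformed sites were lost (1.54%, 1.23 to 1.92%) and 3457 of 9587 transformed sites were gained (36.1%, 35.1 to 37.0%). At 3 RPM or more the counts were 14 lost of 2513 (0.557%) and 675 gained of 4195 (16.1%), and at 5 or more they were 4 of 1032 (0.388%) and 50 of 1256 (3.98%). The gained share was thus smaller at each higher floor, and gained sites outnumbered lost sites at all 5 floors tried.

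By rank within its own list, from the most to the least significant peak, each of the 100 strongest sites of either state was kept. In the non-transformed list 99.8% of the top 500, 99.6% of the top 1000, and 98.4% of the top 5000 sites were kept, and the share in the weakest decile was 71.8% (69.3 to 74.1%). In the transformed list the corresponding shares were 99.0%, 97.1%, and 79.6%. The share kept was 70.8% in the strongest transformed decile, 32.6% in the second, and 2.79% in the weakest. Order among the strongest sites was held in part, since 54 of the top 100 sites of one list paired with a top 100 site of the other, and 594 of the top 1000 did.

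**Figure D2:**
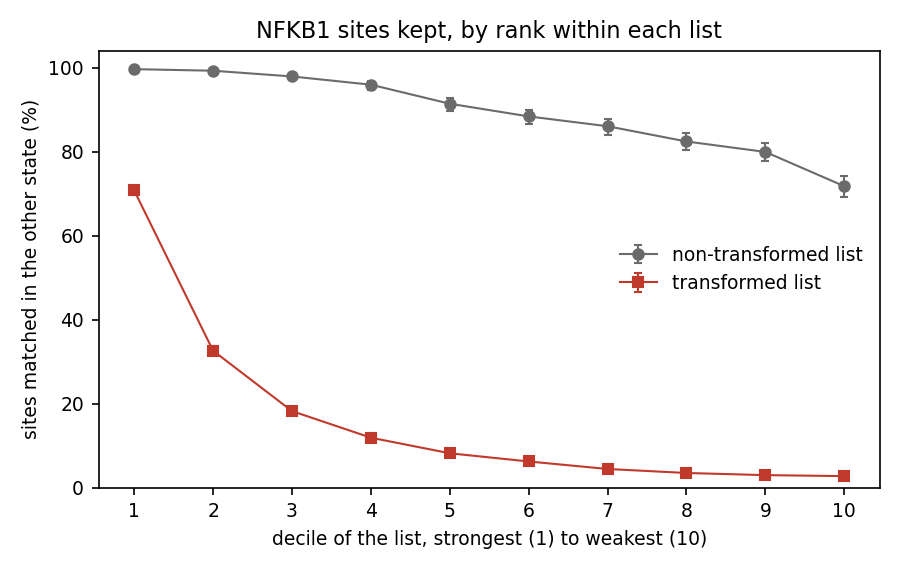
Share of NFKB1 sites with a summit of the other NFKB1 list within 300 bp, by decile of rank in each list, with Wilson 95% intervals. The non-transformed list runs from 99.6% in its strongest to 71.8% in its weakest decile, and the transformed list from 70.8% to 2.79%.

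NFKB1 levels in RPM were compared at the 11733 sites that paired one to one between the lists. A pair needs a listed peak in both states, so sites below the limit of either list are left out. The ratio of transformed to non-transformed level had a median of 1.03 with quartiles of 0.731 and 1.43. It was at least 2 at 1091 pairs (9.3%) and at most 0.5 at 721 pairs (6.15%). The median ratio was 1.15 when levels were also divided by fragment length, and 1.28 with lists of equal length. The latter cuts the transformed list alone to its most significant peaks. Its pairs are thus chosen for a strong transformed peak, which by itself raises the ratio. For comparison, the median ratio at the paired sites of the other proteins was 1.69 for STAT3, 1.29 for JUN, 0.964 for JUNB, and 0.949 for FOS. The ratio at NFKB1 pairs differed between levels and with the way the pairs were grouped. Pairs with a mean level of 1 to 2 RPM had a median ratio of 0.938, those of 2 to 3 had 1.32, those of 3 to 5 had 1.20, and the 1016 pairs of 5 or more had 0.850. In the strongest group NFKB1 was higher after transformation at 342 of the 1016 pairs, but this direction depended on how the pairs were grouped. Grouped by the non-transformed level, pairs of 5 RPM or more had a median ratio of 0.750, and grouped by the transformed level they had 1.13, with a higher level after transformation at 720 of 1206. Pairs of 1 to 2 RPM had a median of 1.10 by the non-transformed and 0.929 by the transformed level. The lists start at 0.827 RPM in non-transformed and 0.413 RPM in transformed cells. The part of these limits in the ratios of weak pairs was not tested. Since at most 1 tag per position was kept, a pileup has a ceiling of 270 reads in the non-transformed and 240 in the transformed list. Corrected for this ceiling the median of the strongest group by mean level was 0.915. Paired summits, which lie within 300 bp by the matching rule, were a median of 24 bp apart over all pairs. At a mean level of 5 or more RPM the median was 13 bp. Larger shifts cannot appear among pairs.

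The fold enrichment that the peak caller writes gives another picture, with a median ratio of 1.64 at the same 11733 pairs. In 45.2% of non-transformed and 44.3% of transformed peaks this value equals, within 0.1%, the pileup plus 1 over the genome-wide background plus 1, with a background of 0.242 and 0.430 reads. A site of 2 RPM would then have a fold enrichment of 8.60 in the non-transformed and 14.2 in the transformed list. The fold enrichment thus differs between the libraries at an equal RPM, and RPM is used throughout.

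The 5 kept sites with the highest level in their lower state were high in both lists. The first, chr1:145113827-145115296, had 111 reads before (22.9 RPM) and 144 reads after transformation (14.9 RPM), ranks 3 and 1. All 4 other proteins were listed there in both states, STAT3 at 6.59 and 8.70 RPM. A site on chromosome 8 had 111 and 130 reads (22.9 and 13.4 RPM), ranks 4 and 2. At chr11:76401663-76402129 NFKB1 had 92 and 119 reads (19.0 and 12.3 RPM), while AP-1 proteins stayed at 2.40 or below, and STAT3 was listed in transformed cells alone, at 2.79. The site chr2:192066727-192068217 had 81 and 116 reads (16.7 and 12.0 RPM) and a STAT3 level of 1.19 before and 8.92 after transformation. The last, chr5:147565751-147566433, had 67 and 113 reads (13.9 and 11.7 RPM), with STAT3 at 2.93 and 9.03. The NFKB1 level, not corrected for the pileup ceiling, was lower in transformed cells at each of the 5, with ratios of 0.586 to 0.843. These sites had 113 to 144 reads in the transformed list, which has the lower ceiling, and 67 to 111 in the non-transformed list. The part of the ceiling in these ratios was not tested site by site, so a lower level at each site is not established. The STAT3 level was higher in transformed cells at each of the 4 sites where it was listed in both states.

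Among gained sites the 5 strongest would have given 32.0 to 41.0 reads in the non-transformed library at an equal level, and its weakest listed peak had 4 reads. The strongest, chr10:120482894-120483246, had 82 reads (8.48 RPM) and rank 117, with the nearest non-transformed NFKB1 summit 70102 bp away. FOS there was at 0.537 RPM before and 3.26 after transformation, JUNB at 1.20 and 3.11, and JUN and STAT3 were listed only after it, at 1.41 and 1.90. At chr5:122597462-122598034, with 81 NFKB1 reads (8.37 RPM), STAT3 went from 1.83 to 11.7, FOS from 1.34 to 4.17, and JUNB from 0.981 to 4.06. The site chr3:134097614-134097946 (68 reads, 7.03 RPM) had only JUNB in non-transformed cells, at 0.763, and all 4 proteins in transformed cells, at 1.19 to 2.76. At chr5:158394546-158395194 (66 reads, 6.82 RPM) all 4 were listed in both states and all were higher in transformed cells, STAT3 by the most, from 0.823 to 6.13. The fifth, chr9:74202826-74203286 (64 reads, 6.62 RPM), had the 3 AP-1 proteins in both states, with FOS at 1.72 and 3.89, and STAT3 in transformed cells alone at 1.56. JUNB was listed before transformation at all 5 sites, and each protein listed in both states had the higher level in transformed cells.

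The 5 strongest lost sites, in contrast, were not empty regions in transformed cells. All 5 overlapped a transformed NFKB1 peak whose summit lay more than 300 bp away, at 303 to 581 bp. The strongest, chr1:201280589-201281107, had 54 reads (11.2 RPM), and the transformed summit 515 bp from it had 81 reads (8.37 RPM). At chr1:204380886-204381408 the non-transformed summit had 37 reads (7.65 RPM) and the transformed one, 303 bp away and thus only just outside the limit, 34 reads (3.51 RPM). The others, chr6:160137728-160138182, chr3:107705864-107706110, and chr1:209989249-209989690, had 33, 26, and 23 reads and transformed summits of 90, 58, and 66 reads at 581, 340, and 492 bp. Among the 77 lost sites of at least 2 RPM, 35 overlapped a transformed peak, and among all 1423 it was 145. Of the gained sites only 62 of 61869 overlapped a non-transformed peak. The strongest lost site without an overlap, named after its values were seen, was chr1:224896050-224896302 with 20 reads (4.13 RPM) and the nearest transformed summit 18040 bp away. An equal level would be 40.0 reads in the transformed library. FOS, JUNB, and JUN stayed listed there, FOS at 3.28 and 2.22, JUNB at 2.72 and 1.84, and JUN, in the other direction, at 0.568 and 1.25 RPM.

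Gained sites were spread over the genome. They lay at a median of 47853 bp from the nearest non-transformed NFKB1 summit, and 21.8% were within 10 kb of one. Lost sites lay at a median of 6761 bp from a transformed summit, in a list of more than 5 times as many peaks. The gained share was 81.0% on chromosome 19 and 87.4% on chromosome X, with the other chromosomes between, and at 2 or more RPM it was lowest on chromosome 19 (32 of 134, 23.9%) and highest on chromosome 18 (92 of 217, 42.4%).

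To see whether the gain was larger for NFKB1 than for the other proteins, the same classes were made for each. Over whole lists the gained share was 83.8% for NFKB1, 61.6% for STAT3, 49.3% for JUN, 44.8% for JUNB, and 39.3% for FOS. At 2 RPM or more it was 36.1% for NFKB1, 31.4% for STAT3, 4.39% for JUNB, 2.06% for JUN, and 1.77% for FOS. The same level is fewer reads in the shallow NFKB1 library, however, so transformed sites were also grouped by the reads that their level would give in the non-transformed library of the same protein. At 10 or more expected reads the gained share was 36.1% for NFKB1, 31.0% for JUN, 23.3% for FOS, and 14.9% for JUNB. At 20 or more it was 181 of 2162 for NFKB1 (8.37%, 7.28 to 9.61%), 8.78% for JUN, 7.69% for FOS, and 3.41% for JUNB, and at 30 or more it was 8 of 620 for NFKB1 (1.29%, 0.655 to 2.53%), 2.54% for JUN, 3.31% for FOS, and 0.851% for JUNB. STAT3 stood apart, with 50.4%, 32.7%, and 23.8% at these floors. On this scale the NFKB1 share was above those of the AP-1 proteins at 10 or more, and its interval at 20 or more held the JUN and FOS shares. At 30 or more it was below the JUN and FOS shares. At all 3 of these floors it lay below STAT3, but at 5 or more it was above STAT3, at 69.3% against 61.5%. At 15 or more it was 16.1%, beside 16.7% for JUN and 40.1% for STAT3.

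**Figure D3:**
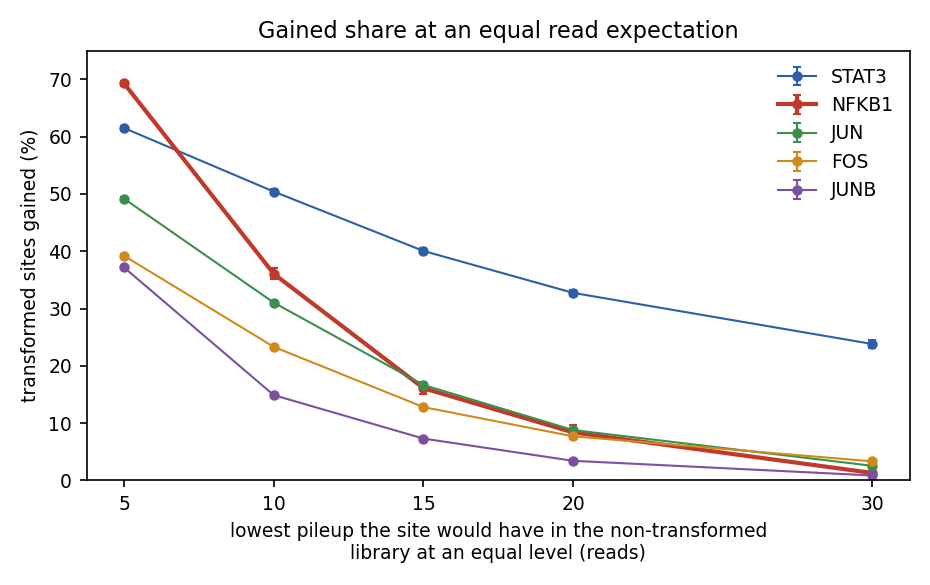
Share of transformed sites without a non-transformed summit within 300 bp, for the 5 proteins, among sites whose level would give at least the number of reads on the x axis in that protein's non-transformed library. Bars are Wilson 95% intervals. At 20 or more reads NFKB1 (8.37%) lies beside JUN (8.78%) and FOS (7.69%), and STAT3 is at 32.7%.

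The other proteins were common at kept and gained sites and less so at lost sites. Of the kept sites, 82.9% had FOS, 78.0% JUN, 64.2% JUNB, and 63.8% STAT3 in non-transformed cells, and 88.4%, 88.7%, 78.2%, and 79.0% in transformed cells. All 4 were present at 47.6% of kept sites before and 67.8% after transformation, and none at 10.1% and 5.11%. At 5345 of the 11953 kept sites (44.7%) all 4 were listed in both states. Gained sites had all 4 at 19.1% before and 46.4% after transformation, and lost sites at 13.8% and 15.6%, with none of the 4 at 34.4% of lost sites before and 35.4% after. Among the lost sites FOS was at 51.9% and 44.4% and STAT3 at 36.5% and 29.7%, while JUN was at 43.4% and 54.4% and JUNB at 28.9% and 33.7%. Lost sites were thus the class in which FOS and STAT3 were listed less often in transformed cells. STAT3 without any AP-1 protein was rare in each class, at 1.21 to 2.81% of sites.

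These shares depend on level and on the depth of the other libraries. The filtered tags numbered 18619521 in the non-transformed and 22082403 in the transformed FOS library, 15852999 and 18454386 for JUN, 9178601 and 15750765 for JUNB, and 10929003 and 8967267 for STAT3. The JUNB library was thus deeper in transformed cells and the STAT3 library shallower. The share of tags removed by the filter was 46.7% in non-transformed and 22.9% in transformed cells for STAT3, and 49.9% and 31.1% for JUNB. It was 18.5% and 20.7% for FOS and 23.2% and 13.0% for JUN. The part of depth and of tag removal in these shares was not tested. At 2 or more RPM, kept and gained sites were much alike in transformed cells. FOS was at 93.6% of the 6130 kept and 93.2% of the 3457 gained sites (difference, gained minus kept, -0.36 percentage points, -1.42 to 0.66), and JUNB at 85.7% and 85.9% (0.22, -1.25 to 1.66). JUN was at 92.2% and 88.4% (-3.80, -5.09 to -2.56) and STAT3 at 85.4% and 83.3% (-2.14, -3.68 to -0.63), and all 4 were at 76.6% and 74.8%. This floor does not equalize level, since 3520 of the kept but 675 of the gained sites had 3 RPM or more. Within 2 to 3 RPM the differences were 2.16 points for FOS (0.69 to 3.64) and 4.22 for JUNB (2.23 to 6.22). For JUN the difference was -1.20 (-2.90 to 0.51) and for STAT3 2.55 (0.48 to 4.63). At 2 or more RPM the sign of the small STAT3 difference also depends on how kept sites are placed and chosen. With their non-transformed summit, and the floor on the non-transformed level, it was 2.95 points.

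In non-transformed cells the same gained sites of 2 or more RPM had less of each protein than the kept sites. Kept sites have an NFKB1 peak in non-transformed cells by definition, and gained sites do not. The part of this choice in the differences was not tested. STAT3 was at 49.8% of gained and 64.2% of kept sites, a difference of -14.4 percentage points (-16.4 to -12.3). JUN was at 68.5% and 80.3% (-11.8, -13.6 to -9.95), FOS at 76.4% and 85.5% (-9.07, -10.8 to -7.42), and JUNB at 64.6% and 69.4% (-4.79, -6.76 to -2.83). AP-1 was nonetheless already listed at most sites where NFKB1 was gained, with at least 1 of the 3 AP-1 proteins at 81.9% of them before transformation and 95.8% after. For 41.1% of these gained sites all 4 other proteins had been listed before. At 592 sites (17.1%) none had been, and 132 of those (3.82% of the 3457) had all 4 after transformation. The strongest of the 132, named after their values were seen, had 53 NFKB1 reads (5.48 RPM) at chr18:57482209-57482488, with STAT3 at 5.46, FOS at 2.08, JUNB at 1.90, and JUN at 1.63 RPM. The next, chr1:181937464-181937810 and chr12:124717703-124718271, had 52 reads each.

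**Figure D4:**
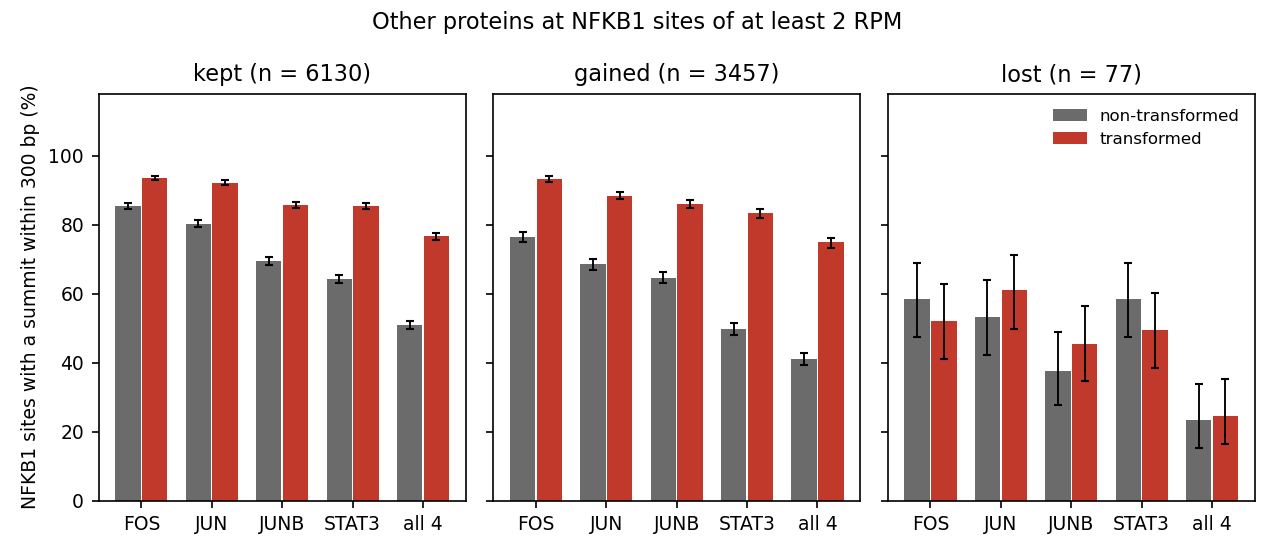
Share of NFKB1 sites of at least 2 RPM with a summit of FOS, JUN, JUNB, or STAT3, or of all 4, within 300 bp in non-transformed (grey) and transformed cells (red), for 6130 kept, 3457 gained, and 77 lost sites. Bars are shares and error bars Wilson 95% intervals. STAT3 goes from 64.2% to 85.4% at kept and from 49.8% to 83.3% at gained sites, and the intervals at lost sites are wide.

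Changes of listing ran mostly one way, at gained and at kept sites. STAT3 was listed in transformed cells alone at 1201 of the 3457 gained sites of 2 RPM or more (34.7%) and in non-transformed cells alone at 42 (1.21%). For JUNB these numbers were 769 and 34, for JUN 725 and 38, and for FOS 623 and 42. At kept sites of the same level STAT3 was listed in transformed cells alone at 1455 of 6130 (23.7%) and in non-transformed cells alone at 150 (2.45%), and the numbers were 1085 and 89 for JUNB, 823 and 94 for JUN, and 599 and 103 for FOS. Over all 73822 transformed NFKB1 sites they were 21736 and 2903 for STAT3, 14235 and 2098 for JUNB, 15359 and 1879 for JUN, and 10422 and 2113 for FOS. All of these sites were chosen from the transformed NFKB1 list. The 13252 non-transformed sites gave 2474 and 740 for STAT3 and 1099 and 554 for FOS. For JUNB they gave 2092 and 363, and for JUN 1712 and 314. Over each protein's own lists, STAT3 had 49456 gained and 12444 lost peaks, and FOS 64646 and 20304. JUN had 62713 and 17122, and JUNB 45249 and 19284. Where a protein was listed in both states, its own level was compared as well. The median ratio for STAT3, transformed over non-transformed, was 2.57 at gained sites and 1.94 at kept sites. It was 1.56 and 1.37 for JUN, 1.29 and 1.13 for JUNB, and 1.19 and 0.95 for FOS. Each of the 4 ratios was higher at gained than at kept sites. At all lost sites the ratios were 1.22 for STAT3, 1.16 for JUN, 0.87 for JUNB, and 0.71 for FOS, each lower than at all kept sites, where they were 1.69, 1.33, 1.04, and 0.86.

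The lower STAT3 share at gained sites before transformation was seen at each level of NFKB1. It was not particular to STAT3, since the share of each AP-1 protein was lower as well, for JUNB only slightly at 2 to 3 RPM. Among sites of 1 to 2 RPM in transformed cells, non-transformed STAT3 was at 43.6% of gained and 65.7% of kept sites. For sites of 2 to 3 it was 52.6% and 65.4%, for 3 to 5 it was 39.0% and 60.2%, and at 5 or more it was 14 of 50 (28.0%, 17.5 to 41.7%) and 833 of 1206 (69.1%, 66.4 to 71.6%). In transformed cells the corresponding pairs were 75.5% and 77.4%, 82.8% and 80.2%, 85.1% and 86.4%, and, at 5 or more, 45 of 50 and 94.9%. Gained minus kept, the STAT3 share differed by -41.1 to -12.9 percentage points over these levels in non-transformed cells and by -4.86 to 2.55 points in transformed cells. The non-transformed difference was -19.4 to -5.47 points for FOS, -27.9 to -5.98 for JUN, and -14.3 to -0.48 for JUNB. At 2 to 3 RPM the JUNB interval was -3.00 to 2.04. Kept sites are those with NFKB1 listed in non-transformed cells, and the part of this choice was not tested by level.

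**Figure D5:**
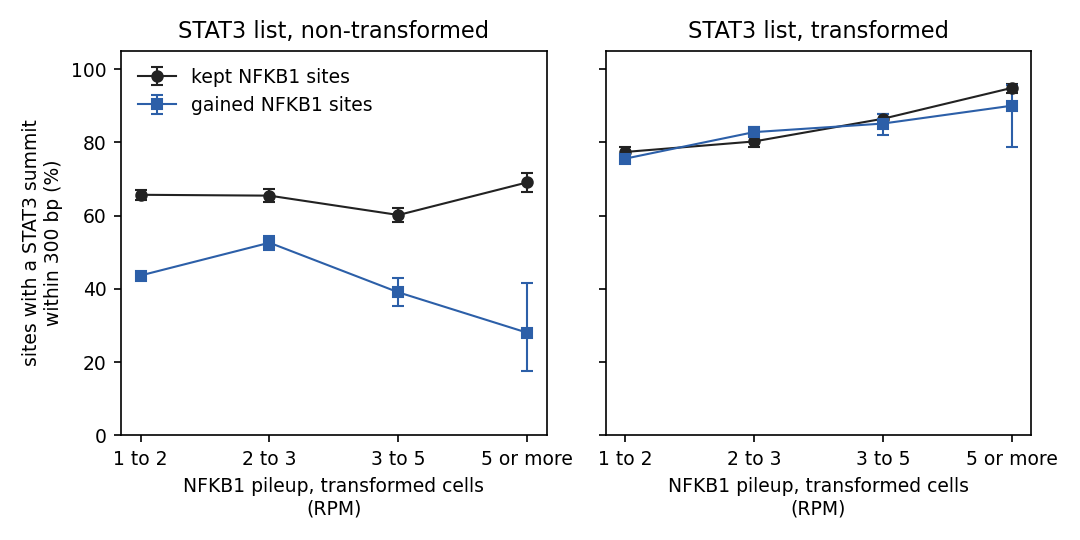
Share of kept and gained NFKB1 sites with a STAT3 summit within 300 bp, by NFKB1 level in transformed cells (RPM), using the non-transformed STAT3 list (left) and the transformed one (right), with Wilson 95% intervals. Gained sites lie below kept sites at each level on the left, down to 28.0% against 69.1%, and the 2 curves are close on the right.

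Within the kept class, NFKB1 levels moved with those of the other proteins. Over the 6983 pairs that had STAT3 in both states, Spearman's rho between the NFKB1 and the STAT3 ratio was 0.40. It was 0.26 over 9403 pairs with FOS, 0.24 over 7291 with JUNB, and 0.21 over 8961 with JUN. These are descriptions across sites, all from the same 4 libraries for each pair of proteins, with their depths. Where STAT3 was listed in transformed cells alone, 367 of 2318 NFKB1 pairs (15.8%) were at least 2-fold higher after transformation and 85 (3.67%) were at 0.5 or below, with a median ratio of 1.15. Where STAT3 was listed in non-transformed cells alone, 13 of 508 (2.56%) were at least 2-fold higher and 103 (20.3%) at 0.5 or below, with a median of 0.714. Over all pairs these shares were 9.3% and 6.15%, and where STAT3 was listed in both states the median was 1.07. For FOS the median NFKB1 ratio was 1.08 where FOS was listed in transformed cells alone, close to the 1.07 where it was listed in both, and 0.700 where it was listed in non-transformed cells alone. For JUN and JUNB it was 1.00 for both where they were listed in transformed cells alone, 1.07 and 1.13 where listed in both, and 0.813 and 0.833 where listed in non-transformed cells alone. The median was thus below 1 for each of the 4 proteins where it was listed in non-transformed cells alone. It was also below 1 where a protein was listed in neither state. The median NFKB1 ratio was 0.750 at the 1008 pairs without FOS and 0.825 at the 1924 without STAT3. At the 1081 pairs without JUN it was 0.800 and at the 2253 without JUNB 0.786, lower than where these were listed in non-transformed cells alone.

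Some kept sites differed far more between the states, and those given here were also named after their values were seen. At chr2:53089882-53090229 NFKB1 had 5 reads before and 63 after transformation (1.03 and 6.51 RPM, ratio 6.30), FOS 0.859 and 2.13, JUNB 1.09 and 2.03, and STAT3 was listed only in transformed cells, at 1.34. At chr12:58187666-58188158 NFKB1 had 6 and 66 reads (ratio 5.50) and STAT3 was at 2.29 and 10.8 RPM. In the other direction, chr5:71146688-71146983 had 28 and 10 NFKB1 reads (5.79 and 1.03 RPM, ratio 0.179), with FOS at 2.15 and 0.679 and STAT3 at 3.39 and 1.34, while JUNB was higher in transformed cells, at 0.872 and 1.33. At chr5:62086305-62086470 NFKB1 had 43 and 16 reads (ratio 0.186), and neither JUNB nor STAT3 was listed there in either state. Ratios built on 5 or 6 reads carry a large counting error.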

How the data were processed

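ChIP-seq was analysed from the deposited peak lists of 5 proteins in 2 states. Per the file headers, the authors called peaks in each library with MACS 2.0.10.20131216 from unique 36-bp tags, without a control, with at most 1 tag per position, a local background over 1000000 bp, a genome size of 2700000000 and a q-value cutoff of 0.05. Bowtie and hg19 are named in the submitters' processing notes. The deposited pileup is a signal in reads and was left unscaled. Significance was deposited as −log10 p-values and −log10 q-values, and the deposited fold enrichment is a ratio to the local background. Peaks were not pooled.

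Summits on chromosomes 1 to 22 and X were matched within 300 bp, and kept pairs are mutual nearest summits. Kept and gained sites were placed at their transformed summit, and lost sites at the non-transformed one. Pileup was scaled to 1000000 filtered tags (RPM), and lists were ranked by −log10 p. Filtered tags ranged from 4837474 to 22082403 per library, and the intervals cover the sampling of sites, not the variation between cultures. The matching recovered all 2000 kept, 500 lost and 4000 gained sites of simulated lists. Sites in those lists lay far apart, with partners within the 300 bp limit, so full recovery was set by their design. It checks the code, not the choice of limit. The alternatives were other matching rules (150 bp, 1000 bp, whole-peak overlap, merged summits, all chromosomes), a −log10 q of at least 5, lists of equal length, level floors, other rankings, and other measures of level. The named sites are the 5 highest of each class, and the others are marked where they appear. The members and lists were chosen with earlier results of these data known. A genome and annotation of the hg19 build were not used here, so genes at promoters and sequence motifs were not analysed, and no coordinate was converted (NFKB1 peaks run past the end of the GRCh38 chromosome on 14 of 23 chromosomes). Peaks on chromosomes Y and M were left out of the comparisons. Python 3.11.15, numpy 2.4.6, pandas 2.3.3, scipy 1.17.1 and matplotlib 3.10.9 were used.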

Additional observations from a re-analysis of the deposited data

Results flagged for a closer look

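NFKB1 peaks outside the chromosomes compared are given here as values, since they were in no comparison. On chromosome Y the lists hold 34 peaks in non-transformed cells (median 1.45 RPM, highest 4.75) and 38 in transformed cells (median 0.827, highest 1.55). On chromosome M, the mitochondrial genome, they hold 10 peaks in each state, with a median of 7.86 RPM and a highest value of 45.5 in non-transformed cells, and a median of 5.84 and a highest value of 10.3 in transformed cells. No control library without the antibody was used here, and the peaks were called without one.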

How the results depend on the processing

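Of 109 values computed under alternatives, 59 moved by less than their interval or kept their count within 1.5-fold, 49 moved by more, and 1 changed sign. The sign change is the STAT3 share in transformed cells, gained minus kept at 2 or more RPM, which was -2.14 points and became 2.95 with the non-transformed summit and level for kept sites, an alternative added after seeing the data, and -0.238 with a −log10 q of at least 5. In non-transformed cells the same difference was -14.4 points, -12.3 with matching within 150 bp and -9.55 with the stricter q. The 1423 lost sites became 841 with the stricter q, 77 at 2 or more and 14 at 3 or more RPM (the latter added after seeing the data), and 5920 when the lists had equal length, since the transformed list then held fewer sites. The 61869 gained sites became 3457 and 675 at these floors, 5991 with equal length, and 23087 at levels of at least 5 reads in the shallower library. The gained share at 2 or more RPM was 37.0% at 150 bp, 34.1% at 1000 bp, and 42.7% with the stricter q. The median ratio at kept pairs of 1.03 became 1.05 at 2 or more RPM, 1.28 with equal length, 1.64 with fold enrichment, 1.15 per fragment length, and 1.08 corrected for the pileup ceiling (added after seeing the data). The equal-length ratio is raised by its choice of pairs with a strong transformed peak. The share of sites with all 4 other proteins is given as non-transformed then transformed. For kept sites it was 42.0% and 61.1% at 150 bp, 55.3% and 76.1% at 1000 bp, 49.9% and 71.4% by peak overlap, 40.3% and 64.4% with the stricter q, 50.9% and 76.6% at 2 or more RPM, and 51.1% and 75.1% with equal length. For gained sites it was 16.7% and 41.6% at 150 bp, 24.5% and 54.3% at 1000 bp, 47.2% (transformed) by peak overlap, 19.4% and 50.6% with the stricter q, 41.1% and 74.8% at 2 or more RPM, and 41.1% and 73.5% with equal length. For lost sites it was 11.5% and 13.3% at 150 bp, 11.4% (non-transformed) by peak overlap, 23.4% and 24.7% at 2 or more RPM, and 35.4% and 47.0% with equal length. Kept sites had the larger share at each of these settings, but not at each NFKB1 level in transformed cells. There, all 4 proteins were at 65.3% of gained and 65.4% of kept sites of 1 to 2 RPM. The shares were 74.6% and 70.5% at 2 to 3 RPM, 75.5% and 76.5% at 3 to 5, and 82.0% and 89.9% at 5 or more. Ranking by pileup or fold enrichment moved no kept share by more than its interval. Motif and promoter alternatives were not run. No paired analysis was possible because each protein has 1 library per state. The non-transformed NFKB1 library is the shallowest of the 10, and the part of depth in the gained class was not tested beyond these floors.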
